A study of Mus musculus with 6 samples.

Results

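The genes described here are 8 integrin chains and Cd44, the receptor for hyaluronan, in CD8 T cells from mouse spleen. They were chosen by name as surface adhesion receptors of T cells: the alpha chains Itgal, Itga4, Itga6 and Itgav, the beta chains Itgb1, Itgb2, Itgb3 and Itgb7, and Cd44. All 9 have a row among the 17744 genes listed, and all 9 are among the 10655 that passed the filter on low values (at least 1 FPKM, fragments scaled to gene length and library size, in at least 3 libraries). The lowest value of any of the 9 was 2.63 FPKM.

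Sorted CD45+ CD3+ CD8a+ spleen cells gave 3 control libraries and 3 libraries from animals with the treatment fus irradiation, here called ultrasound 1, 2 and 3. The series title expands fus as focused ultrasound, sound focused onto a target inside the body. The genotype field reads wt for the controls and repeats the treatment for the other group. Strain, age, ultrasound dose and interval after treatment are not given in the sources used here, nor is whether each library came from 1 animal, so p-values measure the spread between these libraries. The libraries held 35024080 to 38113103 reads.

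The libraries did not form a tight group each. Ultrasound 2 and ultrasound 3 were closer to each other (chi-square per degree of freedom 22.6 over genes) than to ultrasound 1 (135 and 148), and mitochondrial genes took 0.937% to 0.954% of their reads against 2.05% to 2.7% in the other 4 libraries. By the same measure ultrasound 1 was closer to control 1, 2 and 3 (56.1, 82.1 and 105) than to ultrasound 2 or 3. The controls lay at 20.5 to 42.0 from one another. Each of the 9 genes is therefore given in every library, and tested with and without ultrasound 1. The 6 markers of the sorted cells (Ptprc, Cd3d, Cd3e, Cd3g, Cd8a and Cd8b1) summed to 2089 to 2181 FPKM in controls and 1808 to 2112 in ultrasound libraries. Markers of other cells were also present: 10 monocyte and macrophage genes summed to 313 to 702 FPKM in controls and 1769 to 3265 in ultrasound libraries, and 9 neutrophil genes to 187 to 574 and 641 to 2316. Marker sums of CD4 T cells (68.9 to 101 and 99.6 to 133) and erythroid cells (82.4 to 132 and 54.5 to 112) overlapped between groups, as did those of NK cells, dendritic cells and B cells, which are given with the results they moved with.

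Integrins are heterodimers of an alpha and a beta chain that bind cell surface ligands or extracellular matrix once signals from inside the cell switch them on. In T cells the alpha L chain pairs with beta 2 to form LFA-1, which binds ICAM proteins and holds the cell to its target. The alpha 4 chain pairs with beta 1, to bind VCAM-1 and fibronectin, or with beta 7, to bind the mucosal addressin MAdCAM-1. Alpha 6 with beta 1 binds laminins, and alpha V with beta 3 or beta 1 binds proteins with an RGD motif. CD44 binds hyaluronan and is a standard surface marker of T cells that have met antigen, although myeloid cells carry it too.

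RefSeq windows (GRCm38.p6) of the bases before a transcript start were found for 5 of the 9 genes, and 3 are shown because their genes had the largest rise (Cd44), the largest negative change (Itga4) and the change nearest 0 (Itgb1). Each has 250 bases, read 5′ to 3′ on the gene's strand: chr2:102901666-102901915 (minus) for Cd44, chr2:79255176-79255425 (plus) for Itga4 and chr8:128685404-128685653 (plus) for Itgb1. The Cd44 window takes in the first 4 bases of the gene as RefSeq places it. Capitals mark matches, on either strand, to a GC box (GGGCGG), an ETS core (CGGAAG), an AP-1 site (TGANTCA) or a RUNX site (TGTGGT). No match overlapped another in these windows.
Cd44: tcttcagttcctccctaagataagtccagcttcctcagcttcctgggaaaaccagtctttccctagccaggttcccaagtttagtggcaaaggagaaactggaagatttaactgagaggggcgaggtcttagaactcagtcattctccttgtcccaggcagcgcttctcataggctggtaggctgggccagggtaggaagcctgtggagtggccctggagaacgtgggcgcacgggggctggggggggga
Itga4: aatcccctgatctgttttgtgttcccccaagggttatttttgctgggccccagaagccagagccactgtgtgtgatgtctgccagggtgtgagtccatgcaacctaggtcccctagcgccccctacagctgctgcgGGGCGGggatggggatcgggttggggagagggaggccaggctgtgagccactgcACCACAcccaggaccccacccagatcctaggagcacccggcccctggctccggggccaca
Itgb1: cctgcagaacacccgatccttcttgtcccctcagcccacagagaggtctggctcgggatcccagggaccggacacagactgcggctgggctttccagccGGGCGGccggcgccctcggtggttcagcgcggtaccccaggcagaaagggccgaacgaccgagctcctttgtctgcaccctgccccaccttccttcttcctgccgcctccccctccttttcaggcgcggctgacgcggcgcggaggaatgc
The Itga4 window holds 1 GC box, starting 114 bases before the gene start, and 1 RUNX match at 60 bases. The Itgb1 window holds 1 GC box at 151 bases. The Cd44 window holds none of these letters, which says nothing of the factors that bind there. Of 32536 such windows of the mouse genome, 33% hold the GC box, 14% the RUNX letters, 13.7% the ETS core and 6.73% the AP-1 letters. The Itgb1 window has 21 CpG dinucleotides and a GC content of 68%, the Itga4 window 6 and 64%, and the Cd44 window 5 and 56.4%, against medians of 6 and 52.4% over all windows.

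Cd44 and Itgb2 rose, and the other 7 genes did not pass the test. The test was limma on log2(FPKM + 1) with Benjamini-Hochberg adjustment over all 10655 genes and a threshold of 0.05. Of all genes tested, 8.11% passed (6.55% higher and 1.56% lower in ultrasound libraries), against 2 of 9 here, both higher. The same 2 were the only ones of the 9 whose groups did not overlap, both with the ultrasound libraries above; of all genes 34.8% did not overlap, and 25.9% in that direction. The median log2 change was 0.21 over the 9 genes and 0.09 over all genes. With median-of-ratios scaling the median of all genes was -0.02, and all 9 genes kept their direction; relative to that median, Itgb7 and Itgav then stood at 0.11 and 0.13, the smallest positive values of the 9. The split over all genes moved with it, from 698 higher and 166 lower to 281 and 187.

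**Figure D1:**
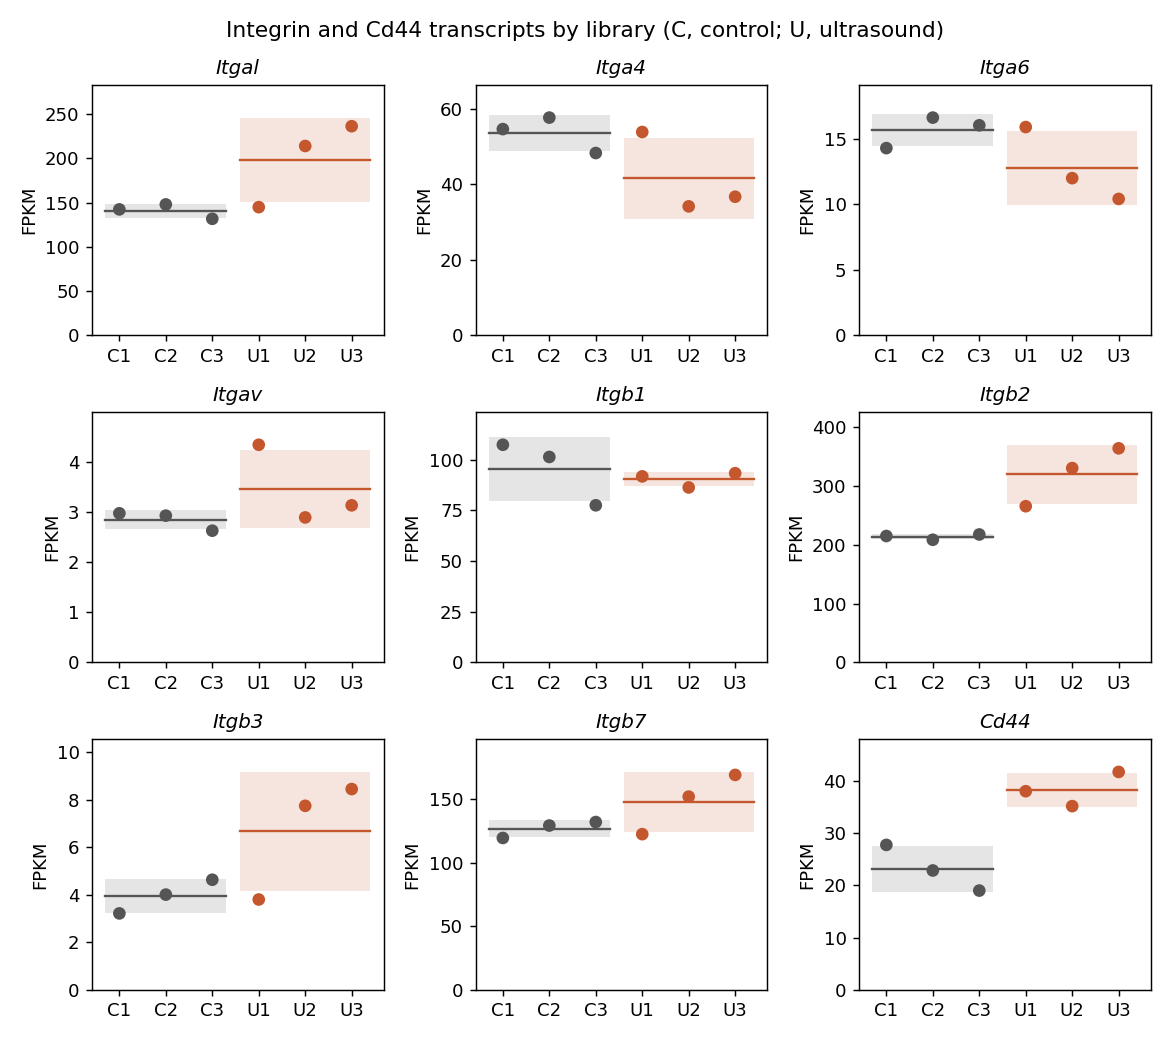
FPKM (vertical axes, each from 0) of the 9 genes in control libraries (C1 to C3, grey) and ultrasound libraries (U1 to U3, orange); lines are group means and bands 1 SD (n = 3 each). For Cd44 and Itgb2 all ultrasound points lie above all control points, and for Itgal, Itga4, Itga6, Itgb3 and Itgb7 ultrasound 1 lies within the controls.

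Cd44 (NCBI Gene 12505, chromosome 2, 102811141 to 102901669, minus strand) had 27.8, 22.9 and 19.0 FPKM in control 1, 2 and 3, and 38.1, 35.2 and 41.8 in ultrasound 1, 2 and 3. The 3 ultrasound libraries lay close together and the lowest of them was above the highest control. These values rest on 3856 to 9153 reads per library. The means were 23.2 ± 4.39 and 38.4 ± 3.29 FPKM (SD, n = 3 each), a ratio of 1.65, and the log2 change was 0.71 (standard error, SE, 0.15; limma adjusted p 0.0389). Against the control mean, ultrasound 1, 2 and 3 differed by 0.71, 0.60 and 0.84 on the log2(FPKM + 1) scale. In the authors' deposited table its fold is 1.52 with q 0.0121. Values are per gene, so splice variants of Cd44, which carry different extracellular stems, were not separated.

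The Cd44 call rested on single libraries. The limma adjusted p was 0.171 without control 2, 0.145 without control 3, 0.0976 without ultrasound 2 and 0.132 without ultrasound 3, with log2 changes of 0.71, 0.58, 0.77 and 0.65. It was 0.0139 without ultrasound 1 and 0.0279 without control 1, and the call was lost with median-of-ratios factors (0.0673) and with no filter on low values (0.0732). Without control 2, control 3, ultrasound 2 or ultrasound 3, and with no filter, limma called 0 genes in all. All ultrasound libraries lay above the highest control for 25.9% of all tested genes. Of the 10 monocyte and macrophage markers 9 did so, and of the 9 neutrophil markers 8. Their part in the Cd44 and Itgb2 results was not tested, and in such bulk libraries fewer cells of a type and less RNA per cell cannot be told apart.

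Itgb2 (NCBI Gene 16414, chromosome 10, 77530329 to 77565708, plus strand) encodes the beta 2 chain of LFA-1 and of the leukocyte integrins with alpha M, alpha X and alpha D. It had 215, 208 and 217 FPKM in the controls, against 265, 330.1 and 364 in ultrasound 1, 2 and 3. The controls were nearly equal and all ultrasound libraries lay above them, ultrasound 1 the least. The means were 214 ± 4.62 and 320 ± 50.0 FPKM (SD, n = 3 each), a ratio of 1.5 and a log2 change of 0.57 (SE 0.13, limma adjusted p 0.0463). In the authors' deposited table its q is 0.0273. Without ultrasound 1 its limma adjusted p was 0.000594 with a log2 change of 0.70. The call was lost without control 1, 2 or 3 (limma adjusted p 0.114, 0.192 and 0.172), without ultrasound 2 or 3 (0.152 and 0.144), with median-of-ratios factors (0.0879), with upper-quartile factors (0.0693) and with no filter (0.0803). Of these fits, those without control 2 or 3, without ultrasound 2 or 3 and with no filter called 0 genes in all.

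Itgal (NCBI Gene 16408, chromosome 7, 127296139 to 127335137, plus strand), the alpha chain of LFA-1, had 142, 148 and 132 FPKM in the controls, against 145, 214 and 236 in ultrasound 1, 2 and 3. Ultrasound 1 lay within the controls, and ultrasound 2 and 3 lay above them. The log2 change was 0.46 (SE 0.18, limma adjusted p 0.146). Without ultrasound 1 it was 0.67, with limma adjusted p 0.000898. The ratio of Itgal to Itgb2 FPKM stayed between 0.546 and 0.711 in all 6 libraries, lowest in ultrasound 1, and its mean log2 value differed by -0.10 between groups (exact two-sided permutation p = 0.4, n = 3 each).

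The alpha 4 chain went the other way in the same pair of libraries. Itga4 (NCBI Gene 16401, chromosome 2, 79255426 to 79333114, plus strand) had 54.6, 57.6 and 48.2 FPKM in the controls, 53.8 in ultrasound 1, and 34.1 and 36.7 in ultrasound 2 and 3. Ultrasound 1 lay within the controls, while ultrasound 2 and 3 were below all of them. The log2 change was -0.38 (SE 0.18, limma adjusted p 0.191). Without ultrasound 1 it was -0.58, with limma adjusted p 0.00209. In the authors' deposited table Itga4 has an unadjusted p of 0.0224 and q of 0.117. The exons of Itga4 share 1124 bases with Cerkl on the opposite strand in GENCODE M21. Cerkl had 0.788 to 1.34 FPKM, and whether counting used strand is not given in the sources used here.

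Itga6 (NCBI Gene 16403, chromosome 2, 71786886 to 71858427, plus strand), the laminin-binding alpha 6 chain, followed Itga4. It had 14.3, 16.6 and 16.0 FPKM in the controls, 15.9 in ultrasound 1, and 12.0 and 10.4 in ultrasound 2 and 3. Ultrasound 2 and 3 were again the lowest of the 6 libraries. The log2 change was -0.29 (SE 0.16, limma adjusted p 0.236), and without ultrasound 1 it was -0.45 with limma adjusted p 0.0071. Between centred log2 values over the 6 libraries, Itga4 and Itga6 had a root-mean-square difference of 0.14, the second smallest of all pairs among the 9 genes after Itgal with Itgb2 (0.12).

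The beta chains that pair with alpha 4 did not share its pattern. Itgb1 (NCBI Gene 16412, chromosome 8, 128685654 to 128733579, plus strand) had 107, 101 and 77.6 FPKM in the controls, against 91.8, 86.4 and 93.4 in ultrasound 1, 2 and 3. All ultrasound values lay inside the span of the controls, which was wider than that of the ultrasound libraries. Its log2 change was -0.06 (SE 0.13, limma adjusted p 0.761). Itgb7 (NCBI Gene 16421, chromosome 15, 102215994 to 102233405, minus strand) had 119, 129 and 132 FPKM in the controls, 122 in ultrasound 1, and 152 and 169 in ultrasound 2 and 3. Ultrasound 1 lay within the controls here too, with ultrasound 2 and 3 above them. Its log2 change was 0.21 (SE 0.13, limma adjusted p 0.306), and 0.34 without ultrasound 1 with limma adjusted p 0.011.

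Ratios between chains within a library do not move with scaling, and 7 ratios were compared, 6 of an alpha to a beta chain it pairs with and 1 of the beta chains that share alpha 4. The Itga4 to Itgb7 ratio was 0.457, 0.446 and 0.366 in the controls, 0.44 in ultrasound 1, and 0.225 and 0.217 in ultrasound 2 and 3. Ultrasound 1 had a ratio like the controls, and the other ultrasound libraries had the lowest ratios of the 6. The mean log2 ratio differed by -0.60 between groups (exact two-sided permutation p = 0.2, adjusted over 7 pairs 0.525, n = 3 each), and by -0.93 without ultrasound 1. The Itga4 to Itgb1 ratio was 0.508 to 0.622 in the controls, against 0.586, 0.395 and 0.393 in ultrasound 1, 2 and 3, a difference of -0.33 (exact permutation p = 0.3). The Itgb7 to Itgb1 ratio, which sets the 2 partners of alpha 4 against each other, was 1.11, 1.27 and 1.70 in the controls, against 1.33, 1.76 and 1.81 in ultrasound libraries, a difference of 0.27 (exact permutation p = 0.2). None of the 7 pairs had groups that did not overlap, and their adjusted p ran from 0.525 to 0.6, in a design where 3 against 3 libraries cannot give less than 0.1.

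**Figure D2:**
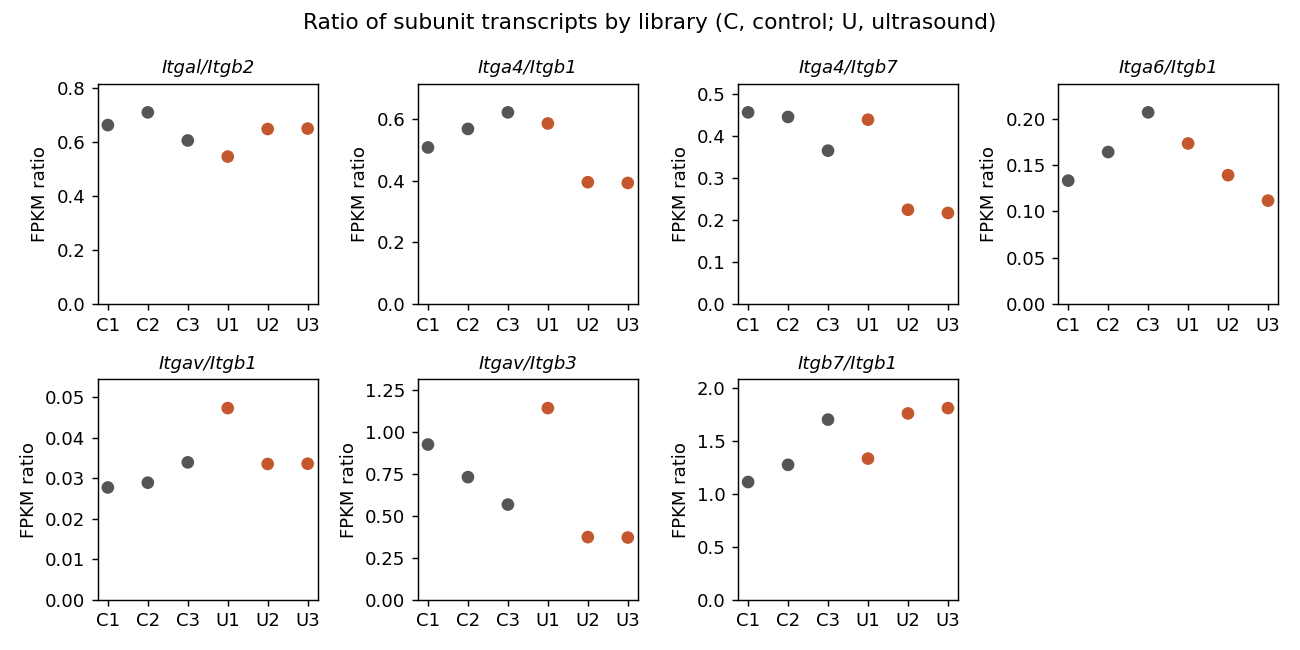
Ratio of FPKM between subunits (vertical axes, from 0) in control (grey) and ultrasound libraries (orange), 1 point per library. In the Itga4/Itgb7 panel ultrasound 1 (0.44) lies among the controls and ultrasound 2 and 3 (0.225 and 0.217) lie below them.

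B cells also carry alpha 4 and beta 7 chains, and 7 B cell markers moved with the split: they summed to 230 to 355 FPKM in the controls, 171 in ultrasound 1, and 893 and 780 in ultrasound 2 and 3. Markers of dendritic cells moved with it too: 6 genes summed to 17.5 to 37.0 FPKM in the controls, 21.7 in ultrasound 1, and 63.1 and 57.5 in ultrasound 2 and 3. The sum of 5 NK cell genes overlapped between groups (35.9 to 43.5 and 27.4 to 52.3 FPKM), and most of it was Eomes, a factor also made in CD8 T cells, which reached 39.9 FPKM in controls and spanned 19.6 to 31.7 in ultrasound libraries, all below the lowest control. The NK receptor genes Ncr1 and Klrb1c did not follow Eomes: control values of Ncr1 spanned 0.133 to 0.228 FPKM, while ultrasound 1, 2 and 3 had 0.533, 5.85 and 5.05. Those of Klrb1c spanned 1.14 to 1.96 FPKM, against 5.15, 8.97 and 8.2. Klrb1f and Klra8, the rest of the NK list, overlapped between groups. For both, ultrasound 1 (1.34 and 0.772 FPKM) lay within the controls and ultrasound 2 and 3 lay above them. Whether these cells contribute to the values of Itga4, Itga6, Itgb7, Itgb3 or Itgal there was not tested.

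The receptors for matrix proteins with an RGD motif were the lowest of the group. Itgb3 (NCBI Gene 16416, chromosome 11, 104608000 to 104670476, plus strand) had 3.21, 4.0 and 4.63 FPKM in the controls, 3.80 in ultrasound 1, and 7.75 and 8.45 in ultrasound 2 and 3. Ultrasound 1 lay within the controls and the other ultrasound libraries well above them. The log2 change was 0.58 (SE 0.27, limma adjusted p 0.189), and 0.89 without ultrasound 1 with limma adjusted p 0.00179. The beta 3 chain is abundant on platelets. Of their genes, Pf4 ran from 0.05 to 2.32 FPKM and Ppbp from 0.03 to 0.84, while Gp1ba reached at most 0.04, Gp5 0.12 and Gp9 0.13. Itga2b, the platelet partner of beta 3, had 0.857 to 0.947 FPKM in controls and 1.40 to 1.68 in ultrasound libraries. Its groups did not overlap (limma adjusted p 0.0512), as for 25.9% of all genes in that direction. At their low values, Gp9 also lay above its controls in all ultrasound libraries and Gp5 below. The 9 platelet and megakaryocyte markers summed to 1.18 to 2.95 FPKM in controls and 1.91 to 4.77 in ultrasound libraries, with overlap. Their part in the Itgb3 values was not tested.

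Itgav (NCBI Gene 16410, chromosome 2, 83722303 to 83806917, plus strand) had the reverse pattern. It had 2.98, 2.93 and 2.63 FPKM in the controls, 4.35 in ultrasound 1, and 2.89 and 3.14 in ultrasound 2 and 3. Here ultrasound 1 was the highest library, and ultrasound 2 lay within the controls. The log2 change was 0.20 (SE 0.14, limma adjusted p 0.353), and without ultrasound 1 it was 0.063 with limma adjusted p 0.602. The Itgav to Itgb3 ratio therefore spread most widely in ultrasound libraries, with 1.14 in ultrasound 1 against 0.374 and 0.371 in ultrasound 2 and 3, and 0.568 to 0.927 in the controls (exact permutation p = 0.6). In ultrasound 1 neutrophil markers summed to 2316 FPKM and in ultrasound 2 and 3 to 641 and 672. Their part in the Itgav value was not tested.

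**Figure D3:**
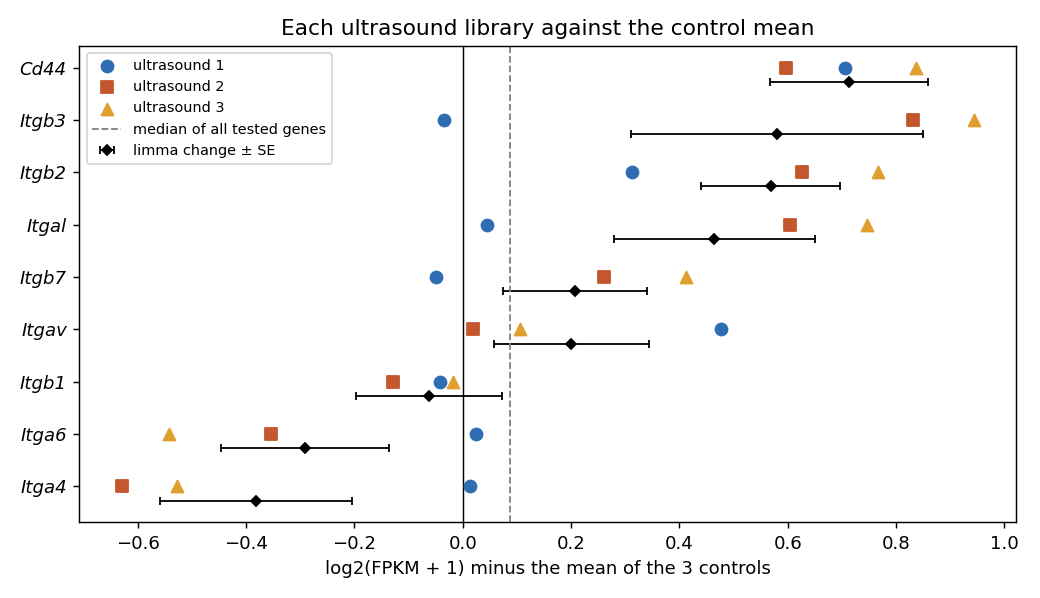
Difference of log2(FPKM + 1) from the control mean (horizontal axis) for each gene in ultrasound 1 (circles), 2 (squares) and 3 (triangles), with the limma change ± SE as black diamonds; the dashed line is the median of all tested genes, 0.09. For Cd44 the 3 libraries lie at 0.60 to 0.84, while for Itgal, Itga4, Itga6, Itgb3 and Itgb7 ultrasound 1 lies within 0.05 of 0.

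Leaving out ultrasound 1 thus turned 2 calls into 7 of 9, with Cd44, Itgb2, Itgal, Itgb3 and Itgb7 higher and Itga4 and Itga6 lower. Over all genes 53.7% passed in that fit (34.1% higher and 19.7% lower), so the share of the 9 genes is to be read against that. The converse fit, with a term for ultrasound 2 and 3 that leaves ultrasound 1 against the controls, called none of the 9 (limma; 3 had an unadjusted p under 0.05). There Cd44 had a log2 change of 0.71 with limma adjusted p 0.132, Itgav 0.48 with 0.09 and Itgb2 0.31 with 0.114.

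On the FPKM scale, which is per length, Itgb2 had the highest level of the 9 genes in both groups, followed by Itgal, Itgb7, Itgb1, Itga4, Cd44, Itga6, Itgb3 and Itgav. The order of the means was the same in controls and ultrasound libraries. In the controls only Itgal and Itgb7 were neighbours with overlapping ranges (132 to 148 and 119 to 132 FPKM). In ultrasound libraries the ranges of Itgal and Itgb7, of Itga4 (34.1 to 53.8) and Cd44 (35.2 to 41.8), and of Itgb3 and Itgav overlapped. Cd44 thus lay at 19.0 to 27.8 FPKM, below all Itga4 values, in the controls and level with Itga4 in ultrasound 2 and 3.

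The 4 beta chains together summed to 440 ± 7.21 FPKM in controls and 565 ± 76.2 in ultrasound libraries (SD, n = 3 each), and the 4 alpha chains to 213 ± 13.3 and 256 ± 34.4. Itgb2 took 48.3%, 47.1% and 50.4% of the beta chain sum in the controls, against 54.9%, 57.3% and 57.3% in ultrasound 1, 2 and 3. All ultrasound libraries were above all controls, ultrasound 1 included. Itgb7 took 26.8% to 30.6% in the controls and 25.3% to 26.6% in ultrasound libraries, so its share was lower in each of them although its FPKM was not. For both shares the exact permutation p was 0.1, the smallest this design allows, and 0.2 adjusted over the 4 shares. Itgb1 took 18.0% to 24.2% in the controls and 14.7% to 19.0% in ultrasound libraries, with overlap. These shares were computed after the values had been seen.

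**Figure D4:**
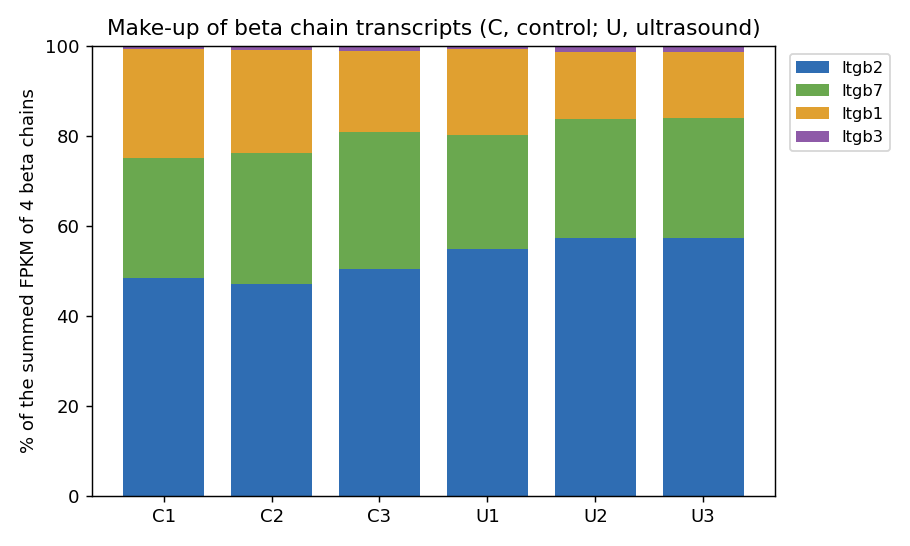
Percent of the summed FPKM of 4 beta chains (vertical axis, 0 to 100) taken by each chain in the 6 libraries (C, control; U, ultrasound). The Itgb2 part is 47.1% to 50.4% in controls and 54.9% to 57.3% in ultrasound libraries.

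Beyond the 9 genes, 92 genes of integrin and CD44 biology in 5 lists were read from the same fit. Of 65 that were tested, 11 were higher, 1 was lower and 53 did not pass, or 18.5% called, against 8.11% of all genes tested, with a median log2 change of 0.27 against 0.09. Without ultrasound 1 limma called 48 of the 65, 36 higher and 12 lower, in a fit where 53.7% of all genes were called. Among the other integrin chains 4 of 8 tested were higher and none lower. Itgam, the alpha M chain of neutrophils and monocytes and a partner of Itgb2, went from 15.5, 6.77 and 6.94 FPKM in the controls to 70.4, 28.5 and 44.2 (log2 change 2.18, SE 0.40, limma adjusted p 0.0316). Itga5, the fibronectin receptor chain that pairs with Itgb1, went from 1.97 ± 0.371 to 5.50 ± 0.76 FPKM (mean ± SD of 3 libraries per group, limma adjusted p 0.0297). Itgb5, an alpha V partner, went from 2.90 ± 1.2 to 11.2 ± 4.72 (limma adjusted p 0.0338) and Itga9, an Itgb1 partner, from 1.57 ± 0.529 to 3.14 ± 0.218 (limma adjusted p 0.0492).

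The remaining partners of Itgb2, singled out after their values were seen, did not pass. Itgad had 7.44 to 10.5 FPKM in controls and 11.6 to 19.2 in ultrasound libraries (limma adjusted p 0.081). Itgax, a dendritic cell and macrophage chain, had 14.9 to 31.0 in controls, 19.9 in ultrasound 1, and 49.4 and 45.0 in ultrasound 2 and 3 (limma adjusted p 0.201). Itgam and Itgax are themselves genes of other leukocytes. Of the 4 alpha partners of Itgb2, Itgal was the most abundant in every library.

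Of 30 tested genes for adaptors that link integrins to actin or switch them on, 2 were higher and 28 did not pass, a share of 6.67% against 8.11% of all genes. Vcl, encoding vinculin, went from 1.79 ± 0.189 to 5.63 ± 1.90 FPKM and Parvb, encoding a parvin of the integrin-linked kinase complex, from 0.574 ± 0.23 to 2.14 ± 0.464 (mean ± SD of 3 libraries per group, limma adjusted p 0.0311 and 0.0306). The adaptors that bind the beta chain tails, named here after their values were seen, did not pass. Tln1, encoding talin, had 113 to 124 FPKM in controls and 133 to 152 in ultrasound libraries (limma adjusted p 0.116). Fermt3, encoding kindlin-3, had 115 to 119 and 127 to 159 (limma adjusted p 0.13). For both genes the ultrasound libraries lay above the controls without overlap, as for 25.9% of all genes.

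Of 8 tested integrin ligands 1 was higher and none lower, a share of 12.5% against 8.11% of all genes. Tgfb1, whose latent form is bound by alpha V integrins, went from 79.4 ± 2.63 to 131 ± 16.8 FPKM (mean ± SD of 3 libraries per group, limma adjusted p 0.0304). Among 9 tested CD44 partners and hyaluronan genes 1 was higher and none lower, a share of 11.1% against the same 8.11%. Mmp9, a secreted gelatinase that can dock on CD44, went from 2.68 ± 1.25 to 12.3 ± 2.56 FPKM (limma adjusted p 0.0297). Ezr and Msn, which tie the CD44 tail to actin and were named after their values were seen, had 186 to 193 FPKM in controls against 179 to 200.4 in ultrasound libraries, and 302 to 333 against 367 to 389 (limma adjusted p 0.833 and 0.137).

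Of 10 lateral partners, surface proteins that associate with integrins in the membrane, 3 were higher and 1 lower. That is a share of 40% called, against 8.11% of all genes. Cd226, an adhesion receptor that couples to LFA-1 on T and NK cells, was the 1 list gene called lower, going from 24.0 ± 1.2 to 11.2 ± 2.21 FPKM (log2 change -1.05, SE 0.14, limma adjusted p 0.0297). It had 22.9, 25.3 and 23.8 FPKM in the controls, against 13.4, 11.2 and 8.96 in ultrasound 1, 2 and 3, so every ultrasound library was well below the controls. Of the 65 tested list genes, 7 had all ultrasound libraries below all controls, as for 8.96% of all genes: Cd226 and, not called, Itgae, Rasgrp1, Stk4, Skap1, Cyth1 and Slc3a2 (limma adjusted p 0.0665 for Skap1 to 0.254 for Stk4). Those same 7 have a q under 0.05 and a lower ultrasound value in the authors' deposited table, as do 884 of its 17744 genes. There q is 0.000384 for Skap1 and 0.00149 for Rasgrp1. These q-values come from the same libraries and are no separate support. With median-of-ratios factors Skap1 was lower along with Cd226 (limma adjusted p 0.0477). The tetraspanins Cd9, Cd81 and Cd151 rose from 24.1 to 47.0, 10.4 to 24.6 and 3.30 to 6.08 FPKM in the mean (limma adjusted p 0.0311, 0.0447 and 0.0304). Of these 12 called genes, all had a limma adjusted p above 0.05 without control 2 or 3, without ultrasound 2 or 3 and with no filter on low values. In each of those fits limma called 0 genes in all. With the term that leaves ultrasound 1 against the controls, 4 of the 12 passed, as did Thbs1, which is not one of them. Markers of myeloid cells moved with the 11 genes that rose, as given above, and their part was not tested.

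**Figure D5:**
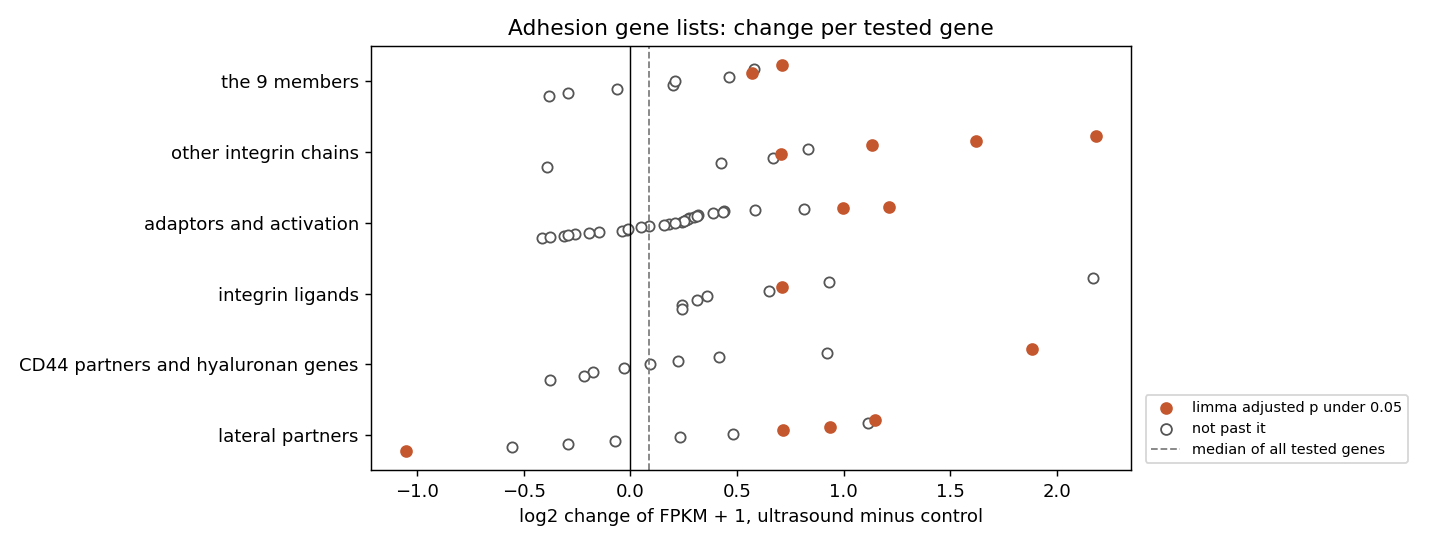
Log2 change of FPKM + 1 (horizontal axis) of each tested gene, by list; filled points passed a limma adjusted p of 0.05 and the dashed line is the median of all tested genes, 0.09. Of the 65 tested list genes 12 are filled, 11 to the right and Cd226 to the left.

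The genes most like each of the 9 over the 6 libraries were found by the root-mean-square difference of centred log2(FPKM + 1), with nothing implied on shared function. Nearest to Cd44 was Itga9 (0.059), then Rab3il1 (0.060) and Epb41l3 (0.063), against a spread of Cd44 itself of 0.39. Nearest to Itgb2 were Elovl1 (0.031) and Psen2 (0.032). Itgal was nearest to Ebp, Inpp5d and Tspan31, Itga4 to Arfip1, Piga and Nemf, and Itga6 to Ormdl1, Slc35e2 and Jade3, with differences of 0.030 to 0.051. Itgb7 was nearest to Rnf31, Mrps18a and Dus3l (0.020 to 0.021). Itgb3 was nearest to Tmub1, Hdac10 and Parp11 (0.056 to 0.072), Itgav to Cndp2, Slc39a11 and Ptpn12 (0.040 to 0.044) and Itgb1 to Mid1, Ggct and Baz1a (0.065 to 0.067).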

How the data were processed

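RNA of sorted spleen CD8 T cells was sequenced in 6 libraries, grouped by the sample titles. Per the submitters' processing notes, HISAT2, HTSeq, DESeq2 and R 3.2.0 were used with build mm10, without saying which step each served. The authors' table gives FPKM per library, per the file headers. It also gives a signal, the group means of DESeq2 normalized counts, with a fold ratio, its log2 value, a p-value and a q-value made by the authors, per the file headers. The deposited filtered table was not used.

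Values were tested as log2(FPKM + 1), a scale that understates the change of low genes. The test was limma 3.58.1 under R 4.3.3, with a mean trend and robust moderation. It was fitted on all 10655 genes with at least 1 FPKM in 3 libraries, and p-values are two-sided. Reads were recovered from FPKM and the group means: 100% of 42762 values under 200 reads lay within 0.05 of a whole number. They carry no molecular identifiers, and no 2 libraries agreed within counting noise. Data were simulated for fus against control, with fold 2 in 200 genes. At a dispersion of 0.01 limma found 100% of the 200, with 17 genes called wrongly among 11424. At a dispersion of 0.05 it found 60%, with 9 wrong calls among 11443 genes. Among the 9 genes the largest ratio of group means was 1.69 (Itgb3). Recovery at folds under 2, or with an ultrasound library set apart from its group, was not tested. Chain ratios used exact permutation tests (Python 3.11.15, scipy 1.17.1). Promoter windows and positions are RefSeq's for GRCm38.p6, the assembly of mm10.

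The 9 genes, the lists, tests and alternatives were chosen with earlier results of these data known. Named genes are the 9, the called genes of each list with the smallest adjusted p (at most 4), and the 3 genes most like each of the 9 (1 of these is not reported here), and any gene outside this rule is said to be so. Other settings tried were the scaling, the filter, the pseudocount, voom run on the whole reads, an extra term that sets ultrasound 2 and 3 apart, a replicate block, the authors' values and each library left out.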

Additional observations from a re-analysis of the deposited data

Results flagged for a closer look

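In the 5 adhesion lists, 21 listed genes missed the filter on low values. RPM is reads scaled to library size. Of these 21, 4 had at least 10 reads in each ultrasound library and higher RPM there than in any control. They were picked by this separation, which by FPKM 25.9% of all tested genes showed in the same direction. Itga2, a collagen receptor chain, had 6.25 RPM or more in ultrasound libraries and at most 4.36 in controls. Itgb2l, a beta 2-like chain, had 2.03 RPM or more (9.94 in ultrasound 1) and at most 1.16 in controls. Itga1, another collagen receptor chain, had 3.24 RPM or more against at most 3.03, and Cdh1, a ligand of alpha E beta 7, 3.88 or more against at most 3.68. The last 2 margins are small: 114 reads for Itga1 in ultrasound 1 against 107 in control 1, and 148 for Cdh1 in ultrasound 2 and 3 against 129 in control 2. The 4 were outside the main test. In the limma fit with no filter none of them passed (adjusted p 0.0859 for Itga2, 0.199 for Itgb2l, 0.261 for Itga1 and 0.295 for Cdh1), while the authors' deposited table has q 0.00418 for Itga2, 0.00533 for Itgb2l, 0.312 for Itga1 and 0.401 for Cdh1.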

How the results depend on the processing

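Of 126 values for the 9 genes under 14 alternatives each, 98 kept their direction and side of the threshold, 18 lost and 5 gained a call (the 5 without ultrasound 1), and 5 reversed. With a term for ultrasound 2 and 3 the log2 changes of Itga4, Itga6, Itgb3 and Itgb7 were 0.013, 0.024, -0.035 and -0.050, and leaving out one library moved that of Itgb1 from -0.20 to 0.028, above 0 without control 1. None of these 5 genes had passed in the main analysis, and the cause was not tested. The 12 called list genes kept their direction in all 168 values, and 87 of these were no longer past the threshold. The groups of all 12 did not overlap, so leaving out a library could not reverse them. The replicate block and the fit with no filter leave each change as it was. The kept direction is therefore no separate support.

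Against 864 genes, 2 of the 9 and 12 list genes in the main analysis, no filter gave 0, 0 and 0 (limma, with 4216 genes, 3 of the 9 and 35 list genes at an unadjusted p under 0.05). Median-of-ratios factors gave 468 genes and 0 of the 9 (4 at an unadjusted p under 0.05), and upper-quartile factors 1 of the 9. The term for ultrasound 2 and 3 gave 150, 0 and 5, with 3 of the 9 at an unadjusted p under 0.05. The authors' deposited table has 2179 genes and 22 list genes (15 higher, 7 lower) with q under 0.05. For none of these was the cause tested. With 1 library left out there were 0 to 5727 genes, 0 to 7 of the 9 and 0 to 48 list genes, the highest without ultrasound 1. The counts were 0 without control 2, control 3, ultrasound 2 or ultrasound 3, where limma gave 1962, 2154, 2058 and 1998 genes at an unadjusted p under 0.05. The 7 chain ratios kept their direction under every alternative tried, among them the replicate block, which could not change it.

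The correlations between the deviations of same-numbered libraries were -0.041, 0.051 and 0.058. The ultrasound libraries did not form a tight group, and that spread enters these deviations. The correlations therefore cannot decide whether same-numbered libraries were paired. With the replicate block limma called 0 genes, 0 of the 9 and 0 list genes; unadjusted p under 0.05 was reached by 3249, 3 and 30. By its arithmetic the block leaves the mean difference of each chain ratio unchanged, such as -0.60 for Itga4 to Itgb7. Each of the 9 genes had at least 676 reads in each library, and no test was made of what more reads would change.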
